A study of Drosophila melanogaster with 6 samples.

Results

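The genes spo, phm, dib, sad, shd, nvd and sro encode enzymes that turn cholesterol into the insect steroid hormone ecdysone and then into its active form. All probe sets annotated to one of these genes alone were taken, which gave 8 probe sets for 7 of 7 genes, 2 for shd and 1 for each other gene. The array named 11981 genes in all and had 18769 tested probe sets. The values came from whole Drosophila melanogaster embryos of stages 11 to 16. 3 samples were wild type embryos of the Oregon R strain and 3 were sage mutants, age-matched and treated alike, with each sample on 1 Affymetrix 3′ expression array. The Sage protein is a bHLH transcription factor made in the salivary gland of the embryo, and the study looked for the genes it controls. The sage allele, the zygosity of the mutants and their strain background are not given in the sources used here. Strain and genotype cannot therefore be told apart. Whole embryos were used, so fewer cells of a type and less RNA per cell cannot be told apart either.

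The embryo cannot make sterols and builds ecdysone from cholesterol supplied by the mother. A pulse of the hormone in mid-embryogenesis is needed for head involution, dorsal closure and the cuticle, and embryos that lack one of the classical Halloween genes of this pathway die without a normal cuticle. The early embryo expresses several of these genes in the epidermis or amnioserosa, and expression later narrows to the prothoracic gland cells of the ring gland. The hormone then acts through a nuclear receptor made of EcR and Usp.

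Array medians on the log2 signal scale were 5.89 to 5.94 in wild type and higher in the mutants, at 5.96 to 6.01. The number of arrays limits the precision. sage was at 8.25 ± 0.34 in wild type and 5.28 ± 0.16 in the mutants (SD, n = 3 each), with no overlap. Of the wild type arrays, replicate 2 had the lowest mean correlation to its own group, 0.977. 5 pairs of control probe sets compare the 5′ with the 3′ end of a transcript. Averaged over the pairs, 5′ minus 3′ signal was −1.84 ± 0.08 in wild type and lower in all mutant arrays, at −3.68 ± 0.61 (SD, n = 3 each).

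None of the 8 ecdysone synthesis probe sets passed the test between sage mutant and wild type embryos, in either direction. limma, with Benjamini-Hochberg adjustment over all 18769 probe sets, called 4.03% of them at an adjusted p under 0.05, 1.93% as lower and 2.1% as higher. At an unadjusted p under 0.05 it called 0 of the 8 members, against 18.7% of all probe sets. The wild type and mutant arrays overlapped for each of the 8, whereas the groups did not overlap at 24.4% of all probe sets. A set of 8 is small, and the member probe sets were dim. Of the 9731 probe sets with a mean inside the members' own range, 2.4% were called and 22.3% did not overlap. 5 of the 8 differences were negative and 3 positive, with a median of −0.08, against a median of −0.03 over all tested probe sets. When each mutant array was set against the wild type array of the same number, 4 of the 8 had 1 sign in all 3 pairs, against 45.1% of all probe sets. These were sro and phm, which were higher, and dib and the dimmer shd probe set, which were lower. With replicate number as a block the limma adjusted p-values of these 4 ran from 0.276 to 0.711. The labels do not say whether replicates were collected separately, so the p-values cover the spread among these samples alone, and that spread may be technical.

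**Figure D1:**
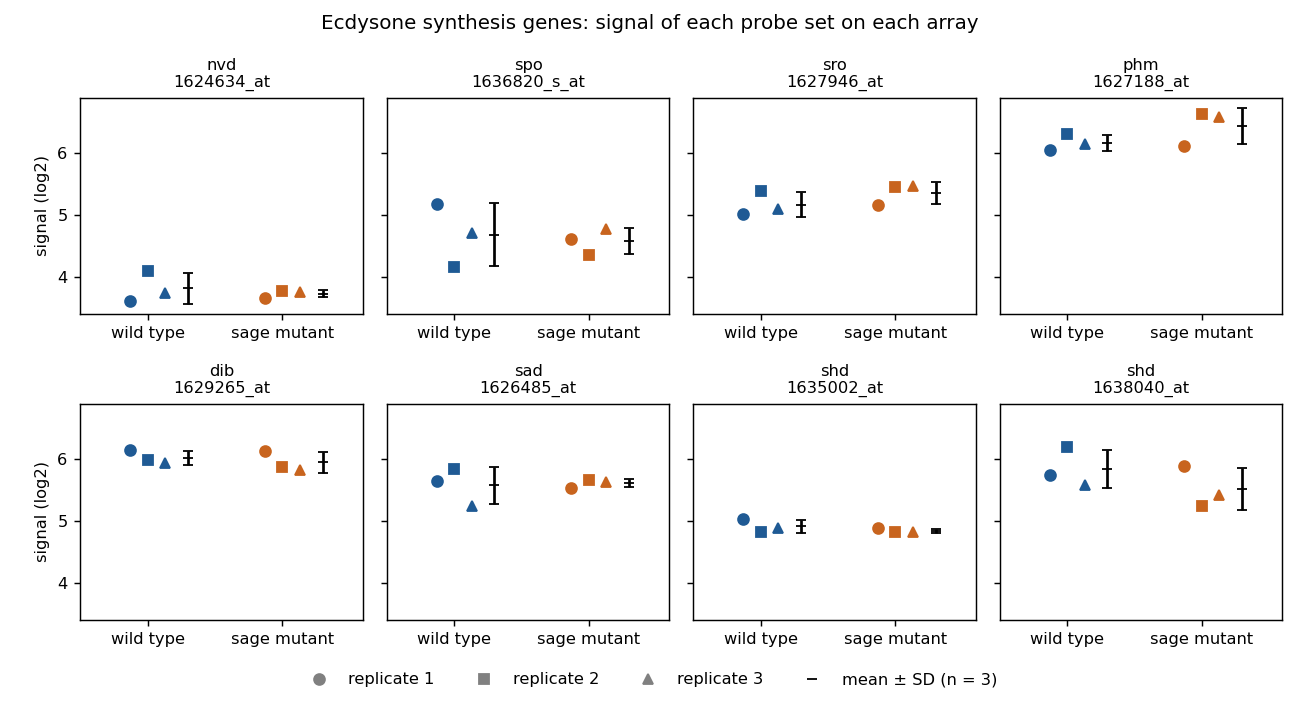
Signal (log2) of the 8 ecdysone synthesis probe sets on each array, wild type in blue and sage mutant in orange, with symbols for the replicate number and bars for mean ± SD (n = 3). In every panel the points of the groups overlap.

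The first committed step was represented by nvd, neverland, a Rieske-type oxygenase that converts cholesterol to dehydrocholesterol (CG40050, chromosome arm 3L). In the order of replicates 1 to 3, used throughout, it read 3.61, 4.10 and 3.75 on the wild type arrays and 3.67, 3.78 and 3.76 on the mutant arrays. The mutant arrays lay inside the wild type range. The change was −0.08 (SE 0.14, limma adjusted p = 0.827).

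The next reactions, the poorly resolved "black box", involve spo and sro. spo, spook, is a cytochrome P450 (CG10594, arm 3L). Its signal was 5.18, 4.16 and 4.70 in wild type and 4.61, 4.35 and 4.77 in the mutants. spo varied more among the wild type arrays than between the groups, with an SD of 0.51 in wild type and 0.21 in the mutants (n = 3 each) and a range over the 6 arrays of 1.02. Its change was −0.10 (SE 0.26, limma adjusted p = 0.889), and its interval was the widest of the 8. sro, shroud, is a short-chain dehydrogenase/reductase (CG12068, arm 3R). It read 5.01, 5.39 and 5.09 in wild type and 5.16, 5.45 and 5.47 in the mutants. Wild type replicate 2 lay above mutant replicate 1, so the groups overlapped, and the change was 0.19 (SE 0.14, limma adjusted p = 0.571).

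phm, phantom, written phtm in the annotation tables (CG6578, X chromosome), is a P450 of the endoplasmic reticulum that hydroxylates the sterol side chain. Its signal was 6.05, 6.30 and 6.14 in wild type and 6.10, 6.63 and 6.57 in the mutants. Mutant replicates 2 and 3 lay above all wild type arrays, and mutant replicate 1 lay below wild type replicates 2 and 3. The change was 0.27 (SE 0.16, limma adjusted p = 0.458), the largest positive difference among the members. Over the fits without 1 array, the phm change ran from 0.18 to 0.44. The value of 0.44 was without mutant replicate 1 (limma adjusted p = 0.128). That array had the lowest 5′ minus 3′ control signal of all (−4.35), and whether this bears on the phm change was not tested.

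The following hydroxylations are made by the mitochondrial P450s dib and sad. dib, disembodied (CG12028, arm 3L), read 6.14, 5.99 and 5.93 in wild type and 6.13, 5.86 and 5.83 in the mutants. Mutant replicate 1 lay just below the highest wild type array, and the other two mutants lay below the wild type range. The change in dib was −0.08 (SE 0.12, limma adjusted p = 0.816). sad, shadow (CG14728, arm 3R), completes ecdysone. It read 5.65, 5.83 and 5.24 in wild type and 5.54, 5.66 and 5.63 in the mutants, whose values all lay inside the wild type range. Its change was 0.04 (SE 0.16, limma adjusted p = 0.942).

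shd, shade (CG13478, arm 3L), is the mitochondrial P450 that converts ecdysone to the active hormone, in target tissues rather than in the gland. It was the only member with more than 1 probe set. The brighter read 5.75, 6.19 and 5.59 in wild type and 5.88, 5.24 and 5.41 in the mutants. Mutant replicates 2 and 3 lay below all wild type arrays, and mutant replicate 1 lay above 2 of them. The change was −0.33 (SE 0.22, limma adjusted p = 0.518), the largest negative difference among the members. The dimmer read 5.03, 4.83 and 4.89 in wild type and 4.88, 4.82 and 4.82 in the mutants. It had a change of −0.07 (SE 0.09, limma adjusted p = 0.766). Both probe sets of shd thus had a difference below 0, and neither passed the test. Over the fits without 1 array, the change at the brighter probe set ran from −0.51 to −0.15. The value of −0.51 was without mutant replicate 1 (limma adjusted p = 0.257).

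**Figure D2:**
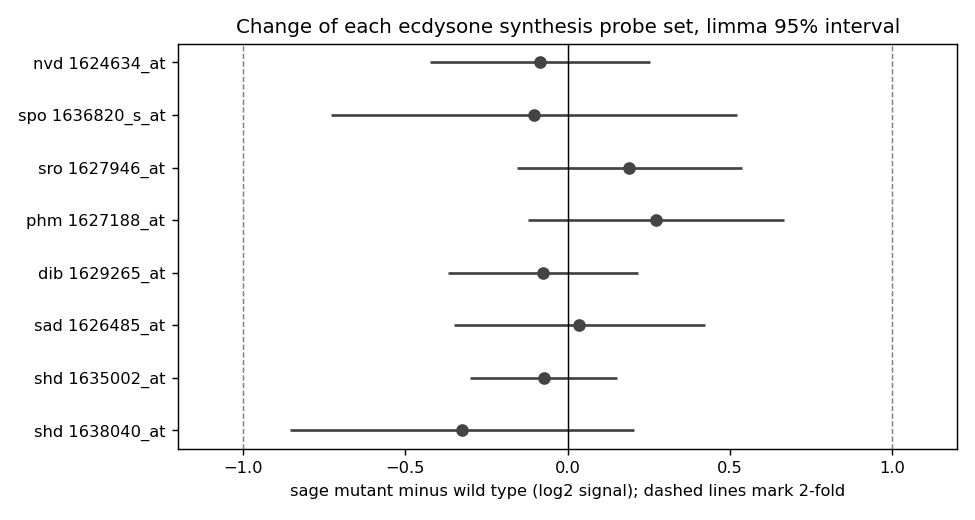
Sage mutant minus wild type signal (log2) of each ecdysone synthesis probe set, with points for the limma estimate and lines for its 95% interval, 3 arrays per group. All 8 intervals include 0 and lie within the dashed lines at a 2-fold difference. Of all 18769 tested probe sets, 15763 had intervals within the same 2-fold bounds.

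A p-value that misses the threshold does not show that the levels were alike, so the intervals matter here. All 8 limma 95% intervals of the difference lay within 2-fold in either direction. So did those of 15763 of the 18769 tested probe sets, so this does not set the members apart. The interval ran from −0.86 to 0.20 for the brighter shd probe set, from −0.73 to 0.52 for spo and from −0.12 to 0.67 for phm. Over the alternatives other than the covariate for 5′ control signal, the lowest bound of any member was −1.04, for the brighter shd probe set. With that covariate the intervals were far wider and passed 2-fold at several members, from −2.51 to 0.39 for the brighter shd probe set, from −2.12 to 1.80 for spo and from 0.31 to 1.92 for phm. The phm interval in that fit does not include 0, while its limma adjusted p was 0.398. The narrowest interval belonged to the dimmer shd probe set, from −0.30 to 0.15. These bounds describe signals. Near background a signal moves less than the transcript it reports, so they do not bound a change in transcript number to the same degree.

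The members read low on these arrays. Their means over the 6 arrays lay between 3.78 for nvd and 6.30 for phm, against a median of 5.97 over all tested probe sets. phm and dib (5.98) were the members above that median. The larval glue genes, which the salivary gland makes much later than these stages, served as a reference for low signal, and their 7 probe sets had means between 4.72 and 5.71. sro, sad and both probe sets of shd lay inside that range, nvd and spo lay below it, and phm and dib lay above it. Probe sets differ in how well they bind, so these levels give no order of transcript abundance among the members, and detection above background was not assessed.

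**Figure D3:**
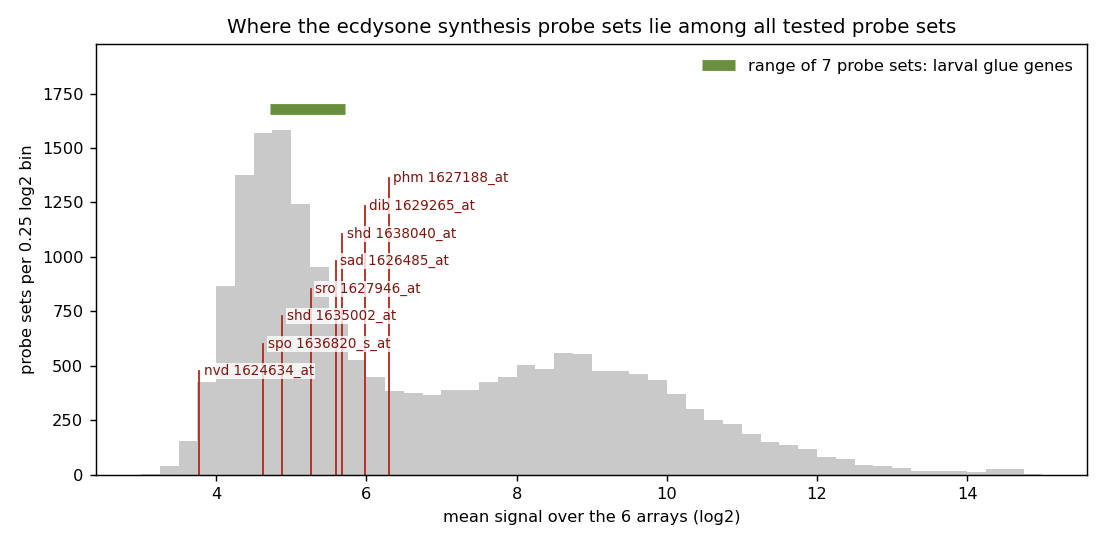
Number of tested probe sets by mean signal over the 6 arrays (log2), in grey, with red lines at the 8 ecdysone synthesis probe sets and a green bar over the range of the 7 larval glue gene probe sets. The members lie between 3.78 and 6.30, in and beside the low peak of the distribution.

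Arrays of 1 group also differed among themselves at the members. Within-group SDs, pooled over both groups, ran from 0.08 to 0.39 with a median of 0.20, against a median of 0.17 over all tested probe sets. The change of nvd was 0.05 without wild type replicate 2. Dropping wild type replicate 1 gave 0.15 for spo, dropping mutant replicate 2 gave 0.0085, and dropping wild type replicate 3 gave −0.13 for sad. The signs of all 3 genes thus turned when single arrays were left out, and none of these differences passed the test.

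The genes nearest in pattern were sought for spo and shd, the members whose brightest probe set had the widest range. The measure was the root mean square difference over the 6 arrays, after each gene was centred on its own mean, among the brightest probe sets of 11981 genes. For spo the nearest were Meltrin (0.05), sha (0.08) and Nrg (0.09), beside a spread of spo itself about its mean of 0.32. For shd they were CG9121 (0.02), CG7768 (0.04) and TH1 (0.05), beside a spread of 0.31. None of these 6 genes passed the test, with limma adjusted p-values from 0.453 to 0.932. They were chosen for a pattern like that of a member that did not pass, so this adds no result. These distances are a description of 6 arrays and carry no test.

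Of the 10 measured genes on a list of other ecdysteroid enzymes and their supply, 1 fell and none rose, each gene being read at its brightest probe set. Among all named genes read in that way 4.98% were called, 2.1% lower and 2.88% higher. The fallen gene was Fdx1, a mitochondrial ferredoxin. Ferredoxins of this kind pass electrons to mitochondrial P450s, the class to which dib, sad and shd belong. Fdx1 read 8.73, 8.76 and 8.83 in wild type and 8.0, 8.17 and 8.32 in the mutants, with no overlap. It fell by 0.61 on the log2 scale (SE 0.11, limma adjusted p = 0.0375). With replicate number as a block the adjusted p was 0.0525, and no array except wild type replicate 2 could be left out with the call kept (0.0637 to 0.141). Fdx2, the other ferredoxin, had a change of 0.08 (SE 0.13, limma adjusted p = 0.82).

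The same list holds spok, the paralog of spo that serves the larval gland. It was named for that relation rather than for its values. It read 4.05, 4.25 and 4.08 in wild type and 4.18, 4.51 and 4.46 in the mutants, a change of 0.25 (SE 0.12, limma adjusted p = 0.342). At an unadjusted p under 0.05 the list had 2 lower and 3 higher genes, against 22.5% of all named genes in either direction, and its median change was 0.16. Named after their values were seen, the higher were Npc2a (0.59), GstE14 (0.49) and ecd (0.40). The lower were Fdx1 and Npc1a (−0.33), and only Fdx1 passed. With array weights 5 genes of the list passed, where the array had 2737 calls. Without wild type replicate 2 the list had 3, where the array had 1111.

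Among 16 measured regulators of these enzymes and of the gland, none passed by the brightest probe set. At an unadjusted p under 0.05 there was 1, against 22.5% of all named genes. 2 of the 16 passed at a dimmer probe set, in opposite directions. With any probe set counted, 300 of all 11981 named genes were called lower and 361 higher. vvl, a POU domain factor needed for expression of these enzymes in the larval gland, fell by 1.33 on the log2 scale (SE 0.26, limma adjusted p = 0.0458). Its brightest probe set had a change of −0.13 (limma adjusted p = 0.886). ftz-f1, a nuclear receptor gene that is itself induced in the wake of ecdysone pulses, rose by 1.90 (SE 0.37, limma adjusted p = 0.0458). It read 5.97, 5.38 and 5.48 there in wild type and 6.75, 7.55 and 8.23 in the mutants. The brightest ftz-f1 probe set had a change of 0.36 (limma adjusted p = 0.687). With the replicate block the ftz-f1 call was lost (limma adjusted p = 0.0798). With 1 array left out, the vvl call held only without wild type replicate 2 and the ftz-f1 call only without mutant replicate 1.

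None of the 5 genes of ecdysone inactivation and transport passed. At the brightest probe set 2 had an unadjusted p under 0.05, 1 lower and 1 higher, against 22.5% of all named genes. EcI, the importer that carries the hormone into cells, had a change of −0.53 (SE 0.19, limma adjusted p = 0.202). It passed with array weights at −0.70 (limma adjusted p = 0.0301), in a fit with 2737 calls on the array against 757 in the main fit. Cyp18a1, the P450 that inactivates the hormone, had 0.44 (SE 0.18, limma adjusted p = 0.267). Without mutant replicate 1 Cyp18a1 passed at 0.65 (limma adjusted p = 0.0398).

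Some receptor and response genes fell. Of 15 measured, 3 fell at their brightest probe set and none rose, against 2.1% lower and 2.88% higher over all named genes. The median change was −0.15, against −0.01 over all named genes. ftz-f1, described above, is on this list too. The 3 were EcR, which encodes the hormone receptor, and the nuclear receptor genes Hr39 and Eip78C. EcR read 8.12, 8.18 and 8.18 in wild type and 7.16, 7.35 and 7.42 in the mutants, a fall of 1.81-fold (log2 change −0.85, SE 0.10, limma adjusted p = 0.011). Hr39 read 9.38, 9.50 and 8.98 in wild type and 8.26, 7.75 and 8.16 in the mutants, a fall of 2.35-fold (log2 change −1.23, SE 0.19, limma adjusted p = 0.0246). Eip78C read 7.73, 7.23 and 7.75 in wild type and 6.73, 6.37 and 6.68 in the mutants, a fall of 1.97-fold (log2 change −0.98, SE 0.18, limma adjusted p = 0.0379). None of these groups of arrays overlapped.

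ImpE1, an early ecdysone-inducible gene, fell at a dimmer probe set (log2 change −0.97, SE 0.16, limma adjusted p = 0.0279), beside −0.02 at its brightest (limma adjusted p = 0.992). Its remaining probe sets had changes of −0.95 and −0.04 and did not pass (limma adjusted p = 0.0906 and 0.889). Other probe sets of Hr39 had changes from −0.54 to 0.12 and did not pass. With the replicate block Hr39 and ImpE1 had limma adjusted p-values of 0.0535 and 0.0692. EcR and Hr39 each lost the call when mutant replicate 2, mutant replicate 3 or wild type replicate 1 was left out. ImpE1 lost it for those arrays and for wild type replicate 3, and Eip78C without any array except wild type replicate 2. Whether their changes differed from those of the members was not tested.

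**Figure D4:**
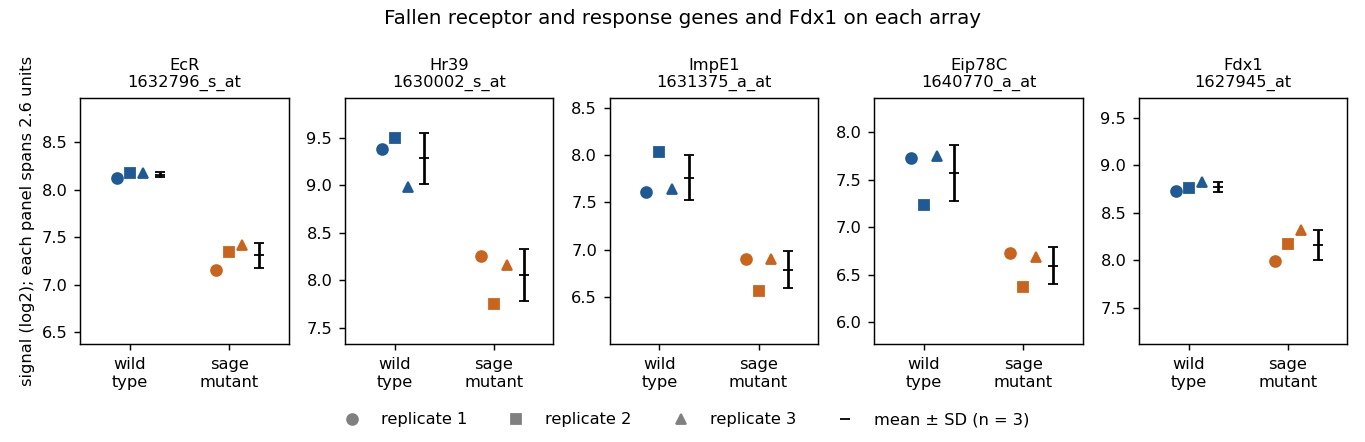
Signal (log2) on each array of the 4 fallen receptor and response genes and of Fdx1, with symbols for the replicate number and bars for mean ± SD (n = 3). Each panel has its own origin and the same span. The panels were chosen as probe sets called lower, for ImpE1 a dimmer one, and the mutant arrays lie below the wild type arrays in all 5.

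The averaged 5′ minus 3′ control signal moved with the groups, by −1.83 from wild type to mutant. With it as a covariate the array held 0 calls, EcR had a log2 change of −0.45 (SE 0.26), Fdx1 −0.15 (SE 0.27), Hr39 −1.49 (SE 0.57) and Eip78C −1.29 (SE 0.52). phm had 1.12 (SE 0.32, limma adjusted p = 0.398) in that fit and the brighter shd probe set −1.06 (SE 0.58, limma adjusted p = 0.746). The covariate does not overlap between the groups, so these estimates are imprecise.

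Listed markers of tissues that hold or border the hormone-producing cells were read in the same whole embryos. How much of their signal comes from other tissues was not tested. None of 11 amnioserosa markers passed, and 1 had an unadjusted p under 0.05, against 22.5% of all named genes. C15 and ush had changes of −0.52 and 0.71 (limma adjusted p = 0.227 and 0.302), and ush passed with the replicate block (0.0479). None of 3 measured markers of the corpora cardiaca and corpora allata, the other parts of the ring gland, passed. Akh, the adipokinetic hormone of the corpora cardiaca, read 6.20, 6.01 and 6.31 in wild type and 6.45, 7.23 and 6.96 in the mutants (change 0.71, limma adjusted p = 0.131), and it passed without mutant replicate 1 (0.0311). With array weights, where the array had 2737 calls against 757 in the main fit, Akh passed as well (0.0313). gl, a zinc finger gene, had −0.31 (limma adjusted p = 0.349). jhamt, the juvenile hormone methyltransferase of the corpora allata, was named after its values were seen. It had the largest difference of the 3, −1.13, with a limma 95% interval from −2.75 to 0.49 and overlapping groups (limma adjusted p = 0.454). None of 11 early and late stage markers passed, with Ddc and ple at 1.53 and 0.32 (limma adjusted p = 0.133 and 0.147), and Ddc passed without mutant replicate 1 (0.0147). Both passed with array weights (0.037 and 0.0271). 3 of the 11 had an unadjusted p under 0.05, 1 lower and 2 higher, against 22.5% of all named genes. Of the stage markers named after their values were seen, Cht5, a chitinase gene, had −0.35 with no overlap (limma adjusted p = 0.244) and Cpr65Ec, a cuticle protein gene, had 1.69 with overlap (limma adjusted p = 0.294).

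**Figure D5:**
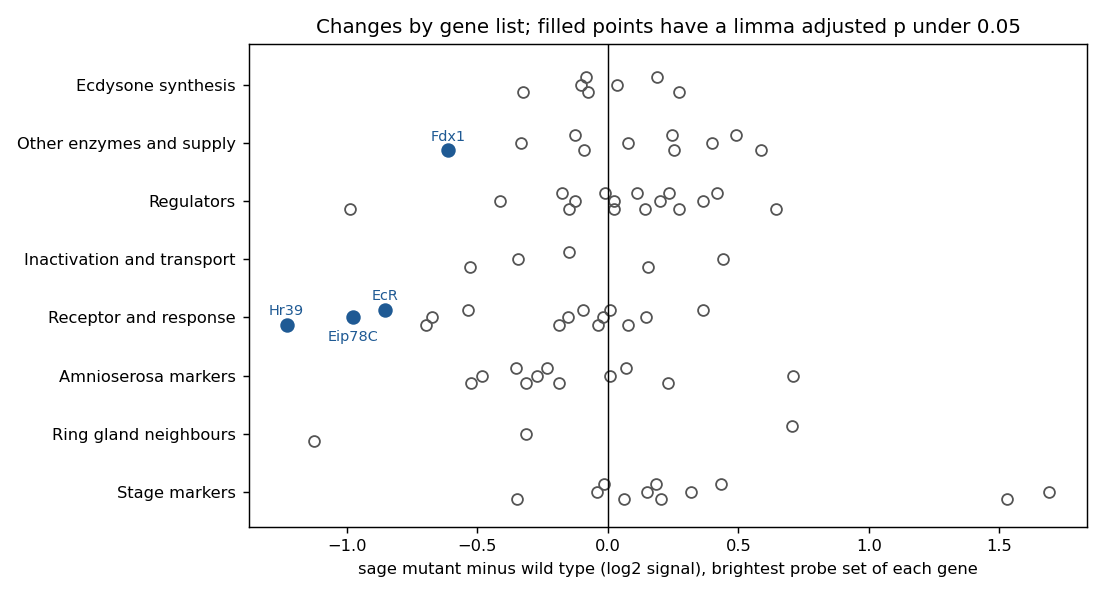
Sage mutant minus wild type signal (log2) of the brightest probe set of each measured gene, 1 row per gene list, with filled and named points for a limma adjusted p under 0.05. The ecdysone synthesis genes lie between −0.33 and 0.27 with no filled point, and the filled points are Fdx1, EcR, Hr39 and Eip78C.

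5 of the members, spo, phm, dib, sad and shd, are cytochrome P450s. Of the 84 other measured genes of that family, 7 fell and 5 rose by their brightest probe set, against 2.1% and 2.88% of all named genes. Their changes ran from −2.07 to 1.43 with a median of 0.06. The median size of the change, whatever its sign, was 0.25 in those P450 genes, 0.10 in the 7 members and 0.18 over all named genes, which was not tested as a difference.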

How the data were processed

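Per the labels' protocols, aged embryos passed through a COPAS sorter before RNA was taken with TriZol and purified on RNeasy columns, and the RNA was labelled from its 3′ end. The authors deposited a table of log2 values, with a column for each array. RMA and Partek are named in the submitters' processing notes, and their versions are not given in the sources used here. The log2 base was taken from RMA's default and from the range of the values. The 183 control probe sets of the array were not tested. The platform annotation supplied gene names, updated through the RefSeq table of Release 6. phm was matched by its gene ID, since that symbol is shared by other genes in the synonyms. No genome or sequence was used, so no coordinates or sequences are given.

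limma 3.58.1 under R 4.3.3 compared the groups at every probe set (lmFit, then eBayes, with no term but group), and p-values were adjusted by Benjamini-Hochberg over all 18769 with a threshold of 0.05. The steps were tested on simulated data. The members, lists and tests were chosen with earlier results of these data known. Named were all probe sets of the members, the listed genes past the threshold at any probe set (up to 6 per list) or else the 2 with the smallest p, and the 3 genes nearest in pattern to each of 2 members. spok, Fdx2 and the P450 counts were given beside these, as were the genes said to be named after their values were seen. For a gene with several probe sets, list counts use the one with the highest mean.

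The groups share replicate numbers, from the sample titles. Same-numbered arrays deviated together from their group means (r = 0.17, 0.28 and 0.31 across probe sets, against −0.30 to 0.14 for other pairs), so a paired fit, with a replicate block, was set beside the unpaired one. Deviations from a group mean cancel within the group. Positive values for some pairs therefore push others negative, and the contrast between the kinds of pair is partly built in. Alternatives were quantile normalization, centring, filters on dim probe sets, another variance model, array weights, a covariate for 5′ minus 3′ control signal, 1 probe set per gene and leaving out each array.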

Additional observations from a re-analysis of the deposited data

How the results depend on the processing

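The count of ecdysone synthesis probe sets called was 0 in each of the 15 alternatives, including the replicate block and all 6 fits that left out 1 array. Not every alternative held all members. The filters on dim probe sets took out nvd, spo and the dimmer shd probe set, and the stricter one left phm and dib alone. The fit with 1 probe set per gene also lacked the dimmer shd probe set. The covariate fit called nothing on the array, so its 0 says nothing about the members. The lowest limma adjusted p of a member was 0.0834, for sro with array weights. Of 110 refits of single members, 102 kept their direction and 8 turned sign, none past the threshold. nvd turned to 0.078 with array weights and 0.16 with the covariate. sad turned to −0.00082 after quantile normalization and −0.031 after centring. Leaving out 1 array, nvd ran from −0.19 to 0.054, spo from −0.36 to 0.15 and sad from −0.13 to 0.17. Of the other genes, ush had −0.25 with the covariate, and without 1 array the brightest probe set of vvl ran from −0.47 to 0.16 and that of ImpE1 from −0.63 to 0.31. Over the whole array 757 probe sets were called, 2737 with array weights, 0 with the covariate and between 134 and 1111 without 1 array. The arrays whose loss moved it by over 1.5 times were mutant replicates 2 (135) and 3 (134) and wild type replicates 1 (212) and 3 (276). The split was 363 lower and 394 higher, or 465 and 334 after centring. The replicate block changed no member's call. It took those of Fdx1, Hr39, ImpE1 and ftz-f1 and gave one to ush. Fdx1 also had limma adjusted p-values of 0.0706 after the stricter dim filter and 0.106 with the other variance model, and ftz-f1 had 0.0534 after quantile normalization. With array weights EcI, Akh, Ddc and ple passed, as given above. Detection above background was not assessed.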
